A study of Homo sapiens with 6 samples.

Results

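The Kruppel-like factors examined here are KLF2, KLF3, KLF4, KLF5, KLF6, KLF7, KLF9, KLF10, KLF11 and KLF13, taken by gene symbol from the deposited table. Each symbol had 1 row, so the set holds 10 of the 58825 genes in the table, and all 10 were among the 19200 tested. RNA was measured in PANC-1, an established human pancreatic ductal carcinoma cell line, in 2 groups of 3 libraries of poly(A)-selected RNA. One group was labelled CMR, a compound given at 8 µM for 48 h, and the other was labelled control. The sources used here do not give the full name of CMR, what the control cells received, or whether the 3 libraries of each group stem from different cultures. The p-values below therefore measure only how much these libraries vary, and that variation may be technical.

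Kruppel-like factors are transcription factors that bind GC-rich and CACCC sequences in promoters through a set of zinc fingers at the carboxyl end, close to those of the SP factors. The rest of the protein differs and sets the class. KLF2, KLF4, KLF5, KLF6 and KLF7 are known mainly as activators that recruit acetyltransferases, KLF3 recruits the CtBP corepressors, and KLF9, KLF10, KLF11 and KLF13 recruit the SIN3 corepressor with its histone deacetylases. In the exocrine pancreas KLF4 and KLF5 are known for roles in ductal transformation of acinar cells, and KLF10 and KLF11 were first described as early response genes of TGF-beta.

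With CMR, 7 of the 10 genes rose and 1 fell. KLF9 was 3.94-fold higher, KLF2 2.70-fold, KLF4 2.27-fold and KLF6 2.09-fold higher. KLF3, KLF11 and KLF13 rose by less than 2-fold, and KLF10 was 2.67-fold lower. KLF5 and KLF7 were not called. Genes were called with edgeR's quasi-likelihood test at a Benjamini-Hochberg adjusted p under 0.05 over all tested genes. By that rule 38.6% of all tested genes were called, 20.5% higher and 18.1% lower, so changes were common in these libraries. With upper-quartile scaling, which shifted the log2 fold changes of all tested genes by a median of -0.13, the split over all genes was 3250 higher and 4324 lower, in place of 3928 and 3476. The KLF genes kept 7 higher and 1 lower under that scaling. FPKM are fragments per kilobase of transcript and per unit of library size. Of the tested genes averaging 1 FPKM or more, 50.9% were called. Among the 1286 tested genes that the deposited table annotates as DNA-binding transcription factors, a set that includes all 10 members, 46.6% were called, 27.8% higher and 18.8% lower. The last of these sets and the FPKM limit were chosen after the values were seen. The median log2 fold change was 0.85 over the 10 genes, -0.01 over all tested genes and 0.07 over the transcription factors. The members were chosen with earlier results of these data known, which limits what this contrast can show. The other tested KLF and SP factors had a median of -0.11. The CMR and control libraries lay in separate ranges for 8 of the 10 genes, 7 higher and 1 lower, against 53.9% of all tested genes (27.3% higher and 26.6% lower). A call of at least 2-fold was made for 5 of the 10 and for 18.4% of all tested genes. In bulk RNA, fewer cells of a type and less RNA per cell cannot be told apart.

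Library totals ran from 51147268 to 70129221 counts. The 6 ductal and mesenchymal markers listed for this line (KRT7, KRT8, KRT18, KRT19, VIM and EPCAM) were detected, and their summed level was lower with CMR, from 339 to 540 FPKM against 1227 to 1340 FPKM in control. By gene, EPCAM was not called (8.01 FPKM with CMR, 7.31 FPKM in control) and the other 5 were called lower. The part of that fall in the KLF results was not tested. Of the other cell types checked, 4 of 4 islet markers were at 0 counts in every library. The summed levels of 5 adipocyte, 5 acinar, 5 endothelial, 5 leukocyte and 5 fibroblast markers stayed at or under 0.164, 0.165, 0.0700, 0.457 and 0.979 FPKM. Among them the acinar trypsinogen gene PRSS1 had 17, 15 and 14 counts with CMR and 0 in each control library. Set against 3 counts in the control libraries together it was 13.1-fold higher (edgeR adjusted p = 0.0109), at 0.0948 FPKM with CMR. The fibroblast collagen gene COL3A1 was 7.06-fold lower (edgeR adjusted p = 0.00992), at 0.0479 against 0.361 FPKM. Their part in the KLF results was not tested. The adipocyte list was included because the extraction text in the labels mentions adipose RNA.

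In the coordinates of the deposited table, read as GRCh38, KLF2 (ENSG00000127528) spans chromosome 19 from 16324817 to 16327874 on the plus strand and KLF4 (ENSG00000136826) chromosome 9 from 107484852 to 107490482 on the minus strand. KLF6 (ENSG00000067082) spans chromosome 10 from 3775996 to 3785209 and KLF9 (ENSG00000119138) chromosome 9 from 70384597 to 70414624, both on the minus strand. These are the 4 genes that rose at least 2-fold. KLF10 is listed as ENSG00000155090.

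Promoters of the members that moved together are shown because the factors themselves bind GC-rich elements. RefSeq promoters (build GRCh38.p14, 250 bases before to 50 after the annotated start) were matched by symbol for 8 members, with 13 entries. None was available for KLF3 or for KLF10, the member that fell. The lines below give the 250 bases before the start for 3 of the genes that rose at least 2-fold, 5′ to 3′ on the strand of the gene. KLF2 lies at chr19:16324576-16324825 on the plus strand, KLF6 at chr10:3785210-3785459 on the minus strand and KLF9 at chr9:70414658-70414907 on the minus strand. Capitals mark the GC box GGGCGG and the CCAAT box CCAAT, each read on both strands.
KLF2: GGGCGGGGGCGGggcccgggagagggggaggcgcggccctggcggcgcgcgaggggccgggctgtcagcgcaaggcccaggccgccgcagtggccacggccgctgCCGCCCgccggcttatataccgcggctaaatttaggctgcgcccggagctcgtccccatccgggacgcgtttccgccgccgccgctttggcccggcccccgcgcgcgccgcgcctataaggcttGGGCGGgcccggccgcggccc
KLF6: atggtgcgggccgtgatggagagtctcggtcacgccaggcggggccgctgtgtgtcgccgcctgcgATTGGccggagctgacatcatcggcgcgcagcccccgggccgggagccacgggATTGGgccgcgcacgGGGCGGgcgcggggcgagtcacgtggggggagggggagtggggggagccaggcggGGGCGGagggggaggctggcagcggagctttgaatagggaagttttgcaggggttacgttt
KLF9: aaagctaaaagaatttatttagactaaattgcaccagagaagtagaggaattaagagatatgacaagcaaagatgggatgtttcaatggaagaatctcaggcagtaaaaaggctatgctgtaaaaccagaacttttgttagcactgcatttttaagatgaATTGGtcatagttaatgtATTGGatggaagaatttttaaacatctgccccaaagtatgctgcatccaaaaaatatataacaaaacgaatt

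The printed stretch of KLF2 holds 4 GC boxes and no CCAAT box, that of KLF6 holds 2 of each, and that of KLF9 holds 2 CCAAT boxes and no GC box. Over the full 300 bases the GC content was 80.7% for KLF2, 69.0% for KLF4, 70.7% for KLF6 and 32.7% for KLF9, where the median of all 35116 promoters was 58.7%. The genes that rose at least 2-fold thus differ widely in base composition at the start. KLF4 had 4 GC boxes and no CCAAT box. None of the windows of KLF2, KLF4, KLF6 and KLF9 held a CACCC box (CACCC, both strands). Of all promoters of that length, 45.0% held a GC box, 34.6% a CCAAT box and 59.9% a CACCC box. GC and CACCC matches can share bases, as in the KLF13 promoter.

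The remaining motifs searched on both strands were the TATA box TATAAA (in 11.5% of all promoters), the cyclic AMP response element TGACGTCA (1.85%) and the shorter TGACG that it contains (24.6%), the AP-1 site TGANTCA (7.71%) and the CHOP-ATF4 element TGATGNAAN (3.61%). TATAAA was found in 1 entry of KLF5, 194 bases before that start. The full TGACGTCA was found in 1 entry of KLF11, 176 bases before that start. TGACG without the full element was found in KLF4 (2 matches), KLF13 (1) and 1 entry of KLF5 (1). The CHOP-ATF4 element occurred once, in 1 of the 4 entries of KLF7, a gene that was not called. No entry held the AP-1 site. These matches describe letters in the windows and are not binding sites.

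The activator class is described first. Normalised CPM are counts relative to a library total scaled by the TMM factor of edgeR, and compare 1 gene across libraries. KLF2, known as a flow-responsive factor of endothelium and a quiescence factor of lymphocytes, had 4.13, 4.13 and 4.29 normalised CPM in CMR replicates 1 to 3 and 1.53, 1.74 and 1.37 in control. All 3 CMR libraries were higher than every control library and differed little from each other. This gave a log2 fold change of 1.44 ± 0.20 (SE, edgeR adjusted p = 0.00148). The processed copy KLF2P1 had 28, 38 and 31 counts with CMR and 17, 24 and 44 in control, where KLF2 itself had 273, 281 and 281 counts and 80, 92 and 90. Reads of both loci could be split between them, so the level of KLF2 is uncertain to that extent.

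KLF4, a factor of epithelial differentiation and of induced pluripotency, had 24.6, 22.4 and 23.9 normalised CPM with CMR and 11.5, 8.64 and 11.1 in control. The groups did not overlap, and control replicate 2 was the lowest library. The log2 fold change was 1.18 ± 0.15 (SE, edgeR adjusted p = 0.00102). KLF6, an early response factor described as a tumour suppressor, had 190, 176 and 149 normalised CPM with CMR and 92.1, 87.0 and 67.7 in control. Replicate 3 was the lowest library in both groups, and the groups stayed apart. The log2 fold change was 1.06 ± 0.15 (SE, edgeR adjusted p = 0.00150), and it was called with at least a 2-fold change in 8 of 14 alternative settings.

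KLF5, a factor of proliferating epithelium, had 11.2, 15.7 and 8.74 normalised CPM with CMR and 12.9, 18.9 and 12.8 in control. The ranges overlapped, and replicate 2 was the highest library in both groups. Its log2 fold change was -0.32 ± 0.26 (SE, edgeR adjusted p = 0.374), with a 95% interval from -0.93 to 0.29. KLF7, best known in neurons, had 19.3, 19.8 and 13.6 normalised CPM with CMR and 19.6, 21.0 and 16.2 in control. Replicate 3 was again the lowest in both groups, and the ranges overlapped. Its log2 fold change was -0.11 ± 0.19 (SE, edgeR adjusted p = 0.690), with a 95% interval from -0.54 to 0.33. Both intervals end below the log2 fold changes of KLF2, KLF4 and KLF6.

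**Figure D1:**
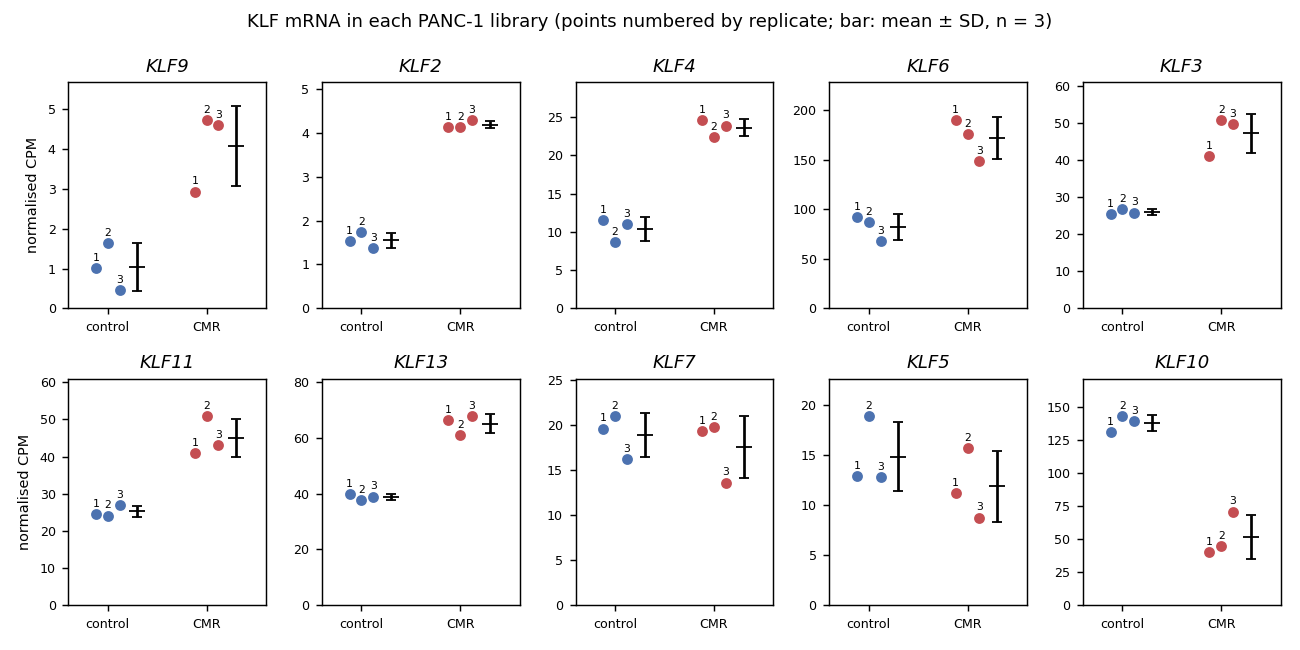
Normalised CPM of the 10 KLF genes (y axis, each panel on its own scale from 0) in the control and CMR libraries (x axis), with points numbered by replicate and bars giving the mean ± SD of 3 libraries. All CMR points lie above all control points in 7 panels and below them for KLF10, while the groups overlap for KLF5 and KLF7.

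KLF3, the member that recruits CtBP and is known as a repressor in blood and fat cells, had 41.1, 50.8 and 49.7 normalised CPM with CMR. Control libraries had 25.4, 26.8 and 25.8. The CMR libraries were all higher, with a wider spread than the control libraries. KLF3 thus had a log2 fold change of 0.86 ± 0.12 (SE, edgeR adjusted p = 0.00142). The antisense gene KLF3-AS1 averaged 3.33 counts per library, or 0.14% of the count of KLF3. No gene whose span overlaps a member reached 1 percent of the member's mean count, the nearest being KLF7-IT1 at 0.88% of KLF7.

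Within the SIN3-recruiting class the members went opposite ways. KLF10, induced by TGF-beta and described as a growth-inhibitory repressor, had 39.7, 44.5 and 70.7 normalised CPM with CMR and 131, 143 and 139 in control. Every CMR library was lower than every control library, and CMR replicate 3 was the least reduced. The log2 fold change was -1.41 ± 0.21 (SE, edgeR adjusted p = 0.00210), with a 95% interval from -1.91 to -0.91. KLF11, its closest relative, had 40.9, 50.8 and 43.1 normalised CPM with CMR and 24.5, 24.1 and 26.9 in control. These ranges lay apart in the other direction, with a log2 fold change of 0.84 ± 0.12 (SE, edgeR adjusted p = 0.00188). The interval of KLF11, from 0.55 to 1.12, lies wholly above 0 and that of KLF10 wholly below it.

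KLF9, a target of the glucocorticoid and thyroid hormone receptors, had 2.92, 4.72 and 4.59 normalised CPM with CMR and 1.01, 1.64 and 0.458 in control. It had the largest fold change of the 10 and the widest interval, from 0.89 to 3.07 around a log2 fold change of 1.98 ± 0.46 (SE, edgeR adjusted p = 0.0134). The control libraries held only 53, 87 and 30 counts of it. KLF13, a regulator of lymphocyte chemokine genes, had 66.5, 61.2 and 67.8 normalised CPM with CMR and 39.9, 37.7 and 38.9 in control. Its groups were narrow and far apart, with a log2 fold change of 0.75 ± 0.09 (SE, edgeR adjusted p = 0.000964).

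**Figure D2:**
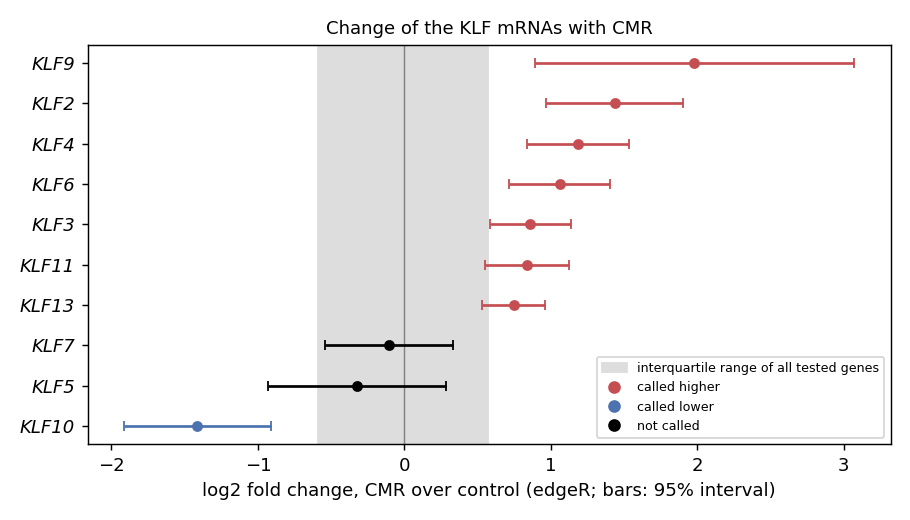
Log2 fold change of CMR over control (x axis) for each KLF gene (y axis), with points from edgeR, bars for the 95% interval and a grey band for the interquartile range of all 19200 tested genes. KLF9, KLF2, KLF4 and KLF6 have point values above 1, KLF10 lies at -1.41, and the intervals of KLF5 and KLF7 cross 0.

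Levels of different genes were compared as FPKM, which is scaled to transcript length. In control cells KLF10 was the most abundant of the 10 at 31.1 ± 1.36 FPKM (SD, n = 3), followed by KLF6 at 11.6 ± 1.83 FPKM and KLF11 at 4.72 ± 0.279 FPKM. The library ranges of these 3 genes lay apart from each other. KLF13 (3.55 ± 0.0989 FPKM), KLF5 (3.48 ± 0.827 FPKM) and KLF3 (3.31 ± 0.0963 FPKM) came next, and the range of each overlapped that of its neighbour. KLF4 (2.45 ± 0.363 FPKM), KLF7 (1.76 ± 0.235 FPKM), KLF2 (0.657 ± 0.0801 FPKM) and KLF9 (0.171 ± 0.0979 FPKM) followed in separate ranges.

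With CMR the order changed at the top. KLF6 led at 22.9 ± 3.19 FPKM (SD, n = 3), in a range apart from that of KLF10 at 11.0 ± 3.38 FPKM. KLF10 now overlapped KLF11, which stood at 7.99 ± 0.876 FPKM. Within each CMR library KLF10 was still the higher of the pair, with ratios to KLF11 of 1.17, 1.05 and 1.97. KLF3 (5.69 ± 0.556 FPKM), KLF13 (5.65 ± 0.322 FPKM) and KLF4 (5.27 ± 0.311 FPKM) overlapped as neighbours. KLF5 followed at 2.64 ± 0.786 FPKM, below KLF4, which it had exceeded in control. KLF2 (1.69 ± 0.0238 FPKM) and KLF7 (1.55 ± 0.321 FPKM) overlapped, and KLF9 remained lowest at 0.641 ± 0.149 FPKM.

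The summed FPKM of the 10 genes was 64.9, 65.8 and 64.3 in the CMR libraries and 62.4, 65.4 and 60.4 in the control libraries, and these ranges overlapped. The FPKM of all genes added up to 228402 to 239732 in the CMR libraries and to 242591 to 249649 in the control libraries. Equal FPKM sums are thus a larger share of all FPKM with CMR. Whether the total KLF mRNA changed cannot be read from them. The make-up of that sum differed. KLF10 gave 49.6 ± 2.21% of it in control and 17.0 ± 5.36% with CMR (SD, n = 3), and KLF6 gave 18.4 ± 2.54% in control and 35.2 ± 4.76% with CMR. Without KLF10, the sum of the other 9 was 49.5 to 56.3 FPKM with CMR and 29.1 to 33.1 FPKM in control. The ratio of KLF10 to KLF6 in FPKM was 0.336, 0.406 and 0.764 with CMR and 2.29, 2.64 and 3.30 in control, so the more abundant of the pair was KLF6 in every CMR library and KLF10 in every control library. The ratio of KLF5 to KLF4 likewise lay between 0.365 and 0.697 with CMR and between 1.11 and 2.18 in control. These sums and ratios are descriptions with no test.

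**Figure D3:**
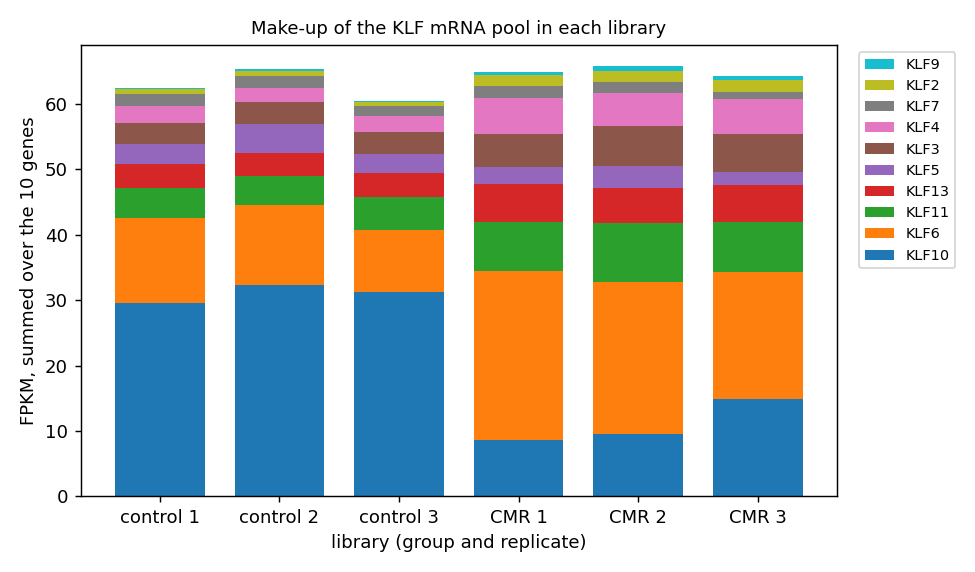
FPKM of the 10 KLF genes stacked for each library (x axis, group and replicate; y axis, summed FPKM). The stacks reach 60.4 to 65.8 FPKM in all 6 libraries, while the KLF10 segment is shorter and the KLF6 segment taller in the 3 CMR libraries. The FPKM of all genes add up to less in the CMR libraries, so stack heights depend on this scaling.

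The rest of the KLF and SP family was listed as well. Of 17 listed genes 9 were tested, of which 1 was higher, 1 lower and 7 not called, with a median log2 fold change of -0.11. That median was the same with KLF15 at the floor value given below. KLF12, which like KLF3 recruits CtBP, had 6.80, 6.85 and 3.86 normalised CPM with CMR and 13.3, 13.1 and 13.5 in control. It was 2.28-fold lower (edgeR adjusted p = 0.00670), whereas KLF3 of the same class was higher. KLF15, a metabolic factor of muscle, fat and liver, had 42, 12 and 38 counts with CMR and 0 in each control library. Set against 3 counts in the 3 control libraries together, the floor used for a count of 0, it was 26.2-fold higher (edgeR adjusted p = 0.00826). Its level was 0.132 FPKM with CMR. The only nonzero count was 4 for the listed genes SP9 and MAOB and 3 for the pseudogene KLF3P2. The floor may thus be no more than a single fragment, and the fold is not a firm lower bound. KLF16 and the SP factors SP1, SP2, SP3, SP4 and SP6 were not called, nor was KLF8. SP1, the ubiquitous GC-box factor, stood at 152 ± 8.78 normalised CPM with CMR and 150 ± 23.8 in control (SD, n = 3).

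Among 14 co-regulators through which these factors act, 4 were higher, 7 lower and 3 not called, with a median log2 fold change of -0.19. KAT2A, an acetyltransferase, had 34.8, 26.0 and 25.7 normalised CPM with CMR and 80.7, 84.5 and 84.1 in control, and was 2.88-fold lower (edgeR adjusted p = 0.000312). The related acetyltransferase gene KAT2B was 1.91-fold lower. HDAC1, a deacetylase of the SIN3 complex, was 2.05-fold lower at 140 ± 19.8 against 286 ± 20.2 normalised CPM (SD, n = 3). The 4 that rose, named after their values were seen, were SIN3A (log2 fold change 0.57, edgeR adjusted p = 0.00187), SIN3B (0.43, 0.0227), the acetyltransferase gene EP300 (0.44, 0.00985) and CTBP2 (0.49, 0.0440). The call of CTBP2 was lost in 10 of 14 alternative settings, with adjusted p = 0.0971 under the replicate block, 0.1004 under upper-quartile scaling, 0.0681 with library totals only and 0.0561 without the count filter (all edgeR). With limma it was 0.0625 and 0.0636. Leaving out single libraries gave 0.135 (CMR replicate 2), 0.0966 (CMR replicate 3), 0.131 (control replicate 2) and 0.1198 (control replicate 3), again with edgeR. SIN3B lost its call in 5 of 14, with edgeR adjusted p = 0.0800 under upper-quartile scaling, 0.0636 without CMR replicate 2, 0.0548 without CMR replicate 3, 0.0871 without control replicate 1 and 0.0859 without control replicate 3. SIN3A rose, as did KLF9, KLF11 and KLF13, while KLF10 of their class fell. HDAC1 of the SIN3 complex fell too, and SAP30 and HDAC3 were not called. CTBP1 (log2 fold change -0.54, edgeR adjusted p = 0.00837) was lower, and it too was picked for its values. Also lower were HDAC2 (-0.26, 0.0410) and NCOR1 (-0.30, 0.0137), which lost their calls in 7 and 3 of 14 alternative settings.

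Genes known to act on KLF protein stability were 4 higher, 1 lower and 3 not called of 8 tested, with a median log2 fold change of 0.23. FBXW7, the ubiquitin ligase subunit that targets KLF5, had 25.3, 35.7 and 36.6 normalised CPM with CMR and 17.4, 16.7 and 16.0 in control (1.95-fold higher, edgeR adjusted p = 0.00342). BTRC, described for KLF4, was 1.78-fold higher and BAP1, a deubiquitinase described for KLF5, 1.59-fold higher. FBXO32, another ligase subunit described for KLF4, was 1.39-fold lower (edgeR adjusted p = 0.0202). That call was lost without CMR replicate 2 (edgeR adjusted p = 0.0564) or control replicate 1 (0.0640), 2 (0.0665) or 3 (0.0624). Protein levels were not measured.

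Of 13 tested genes of pathways known to control KLF transcription, 4 were higher, 3 lower and 6 not called, with a median log2 fold change of -0.01. In the ERK5 branch, which induces KLF2 and KLF4 through MEF2 factors, MEF2D had 60.7, 59.3 and 73.2 normalised CPM with CMR and 29.7, 22.8 and 28.9 in control (2.37-fold higher, edgeR adjusted p = 0.000767). MAPK7, the ERK5 kinase itself and named after its values were seen, was 1.82-fold higher (edgeR adjusted p = 0.0198). That call was lost without CMR replicate 1 (edgeR adjusted p = 0.0571) or 2 (0.0670) and without control replicate 1 (0.0713) or 3 (0.0694). The rest of the branch was not called: MAP2K5 (log2 fold change 0.39, edgeR adjusted p = 0.0674), MEF2A (0.55, 0.0536) and MEF2C (-0.11, 0.588). In the TGF-beta branch, which induces KLF10 and KLF11, the shared mediator SMAD4 was 2.58-fold higher (edgeR adjusted p = 0.000435). The receptor gene TGFBR2 (1.52-fold lower) and the receptor-activated mediator SMAD3 (1.72-fold lower), both named after their values were seen, fell. Neither TGFBR1 (edgeR adjusted p = 0.857) nor SMAD2 (0.912) was called. Among glucocorticoid-induced genes, TSC22D3 had 32.6, 28.4 and 29.8 normalised CPM with CMR and 6.38, 5.73 and 5.39 in control (5.18-fold higher, edgeR adjusted p = 6.4e-05). FKBP5, also induced by glucocorticoids, was 2.13-fold lower (edgeR adjusted p = 0.000779), so these 2 known responders went opposite ways beside the rise of KLF9.

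Of 18 genes known from the literature as targets of individual members, 13 were tested, with 4 higher, 4 lower, 5 not called and a median log2 fold change of -0.22. THBD, the thrombomodulin gene activated by KLF2 and KLF4 in endothelium, had 40.3, 21.7 and 31.4 normalised CPM with CMR and 3.08, 2.47 and 4.64 in control. It was 9.14-fold higher (edgeR adjusted p = 0.000439). CCL5, a chemokine gene regulated by KLF13 in T cells, was 5.44-fold higher at 5.48 ± 1.79 against 1.01 ± 0.498 normalised CPM (SD, n = 3). ATF3, a stress factor gene described as a target of KLF6, was 22.5-fold higher. Smaller called changes were those of CDKN1B (1.94-fold higher, edgeR adjusted p = 0.000699), PLAU (3.24-fold lower, 0.00109), ENG (2.77-fold lower, 0.00522) and PDGFA (2.20-fold lower, 0.00160). CCND1, the cyclin D1 gene activated by KLF5, had 129, 130 and 92.7 normalised CPM with CMR and 411, 425 and 435 in control, and was 3.61-fold lower (edgeR adjusted p = 0.000159). SMAD7, which KLF10 is known to repress, was not called (log2 fold change -0.76 ± 0.33 SE, edgeR adjusted p = 0.115), but was with DESeq2 (adjusted p = 0.0445) and without CMR replicate 1 (edgeR adjusted p = 0.0218). CDKN1A, a target of KLF4 and KLF6, was not called either (log2 fold change 0.57 ± 0.47 SE, edgeR adjusted p = 0.377). These genes have many other regulators, and a link to a KLF factor was not tested.

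**Figure D4:**
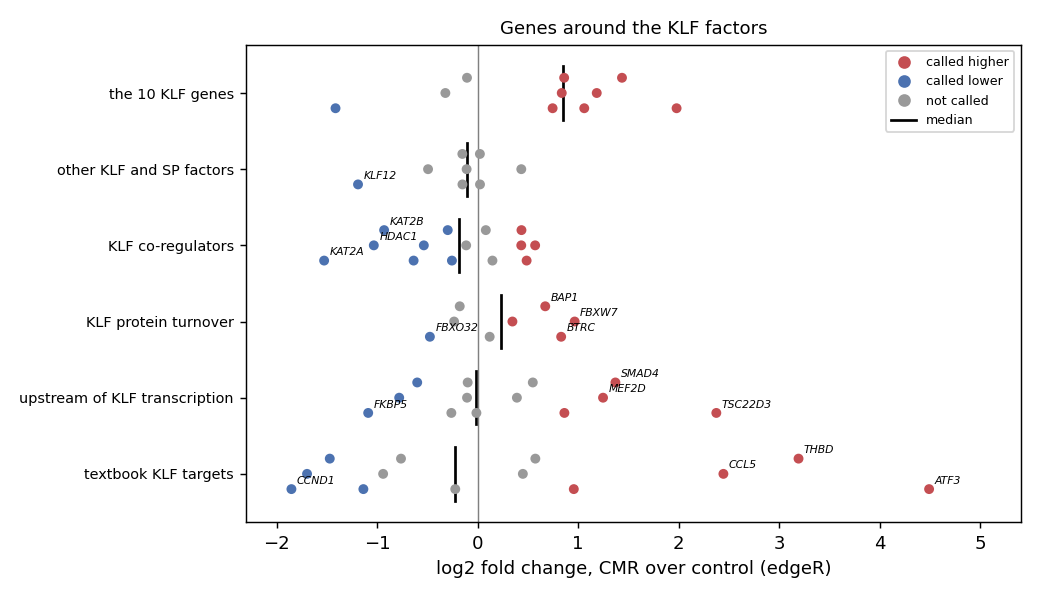
Log2 fold change of CMR over control (x axis) for each tested gene of the KLF set and of the 5 lists around it (y axis), coloured by call, with a vertical bar at each median. The KLF set has its median at 0.85 and the lists have theirs between -0.22 and 0.23. KLF15, absent from control, lies beyond the right edge. Members and lists were chosen with earlier results of these data known.

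Genes with the profile most like that of KLF9 and KLF10 were sought by the smallest root mean square difference in centred log2 normalised CPM over the 6 libraries, among the 6473 genes that averaged 5 FPKM or more. For KLF9 these were PMAIP1, which encodes the BH3-only protein NOXA (difference 0.34), the mRNA cap methyltransferase gene RNMT (0.35) and the kinetochore gene MIS12 (0.36). They share with KLF9 a control replicate 3 that is the lowest library. For KLF10 they included the transcription factor gene GATA2 (0.17) and the replication checkpoint gene CLSPN (0.22). GATA2 had 22.0, 21.4 and 31.3 normalised CPM with CMR and 52.6, 56.9 and 58.9 in control, with CMR replicate 3 the least reduced as for KLF10.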

How the data were processed

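The authors' deposited table gives a count and an FPKM value per gene and library. The deposited counts are whole numbers without normalization, and the FPKM values are the authors' own length and depth scaling, per the file headers, with genes of no count listed at 0.0001. The submitters' processing notes name the mouse build mm8 and the tools StringTie 1.3.0, HISAT2 2.0 and Bowtie 0.12.2. The identifiers are human, and 47519 (81.2%) of 58552 genes found in GENCODE release 29 had identical coordinates on GRCh38, among them 4 of the 10 members. The sources used here give neither strandedness nor the counting tool.

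Counts were tested with edgeR 4.0.16 (R 4.3.3): TMM scaling, filterByExpr (minimum count 10, minimum total 15), quasi-likelihood test without a replicate block, Benjamini-Hochberg adjustment over 19200 genes. The SE is the log2 fold change divided by the root of its F statistic. Alternatives were DESeq2 1.42.0, limma 3.58.1, other scalings and filters, the replicate block and leaving out each library. Members and gene lists were chosen with earlier results of these data known. From each list up to 4 called genes with the largest change were named, with all 10 members and 3 genes of like profile for each of 2 members. Of the genes this rule names, 2 are not reported here. SP7, USP3, TGFB1 and PER1 were not analysed here, nor were protein sequences. Library totals and 3 libraries per group set the precision.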

Additional observations from a re-analysis of the deposited data

How the results depend on the processing

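Under all 14 alternative settings the KLF genes gave 6 or 7 higher and 1 lower. The count of 6 came from the 3 settings limited to a mean of at least 1 FPKM, where KLF9 was not tested, and leaving out single libraries gave 7 higher and 1 lower each time. Adjusted p of KLF9 reached 0.0488 (edgeR) without control replicate 1. The log2 fold change of KLF2 was 0.70 with limma on log2(FPKM + 1), where the pseudocount is large against its level. That of KLF6 was 0.93 with upper-quartile scaling, and that of KLF10 ranged from -1.71 without CMR replicate 3 to -1.26 without CMR replicate 1. When single libraries were left out KLF7 ran from -0.21 without control replicate 3 to 0.044 without CMR replicate 3, its 1 change of sign. Its lowest value over the 14 settings was -0.23, with upper-quartile scaling, and it was called in none of the 14 settings. TPM in place of FPKM moved no group ratio of a member by more than the spread between libraries. That check did not cover the summed FPKM of the members.

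The replicate block kept 7 KLF genes higher and 1 lower, with 3582 genes higher and 3155 lower over all tested genes, and ended no call among the KLF genes. Among the lists it ended the calls of CTBP2 (edgeR adjusted p = 0.0971) and HDAC2 (0.0533) and added MEF2A (0.0285) and LGALS3 (0.0395). Deviations of libraries with the same number correlated with r = 0.034, 0.044 and 0.052 across genes, and each library correlated best with its own number, a hint from the data only. The numbers are therefore not taken as pairs.

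Among the lists, the other KLF and SP factors had 0 higher and 0 lower in edgeR and limma with a mean of at least 1 FPKM, where KLF12 and KLF15 were not tested. The co-regulators that rose numbered 2 with upper-quartile scaling and 2 to 4 when single libraries were left out. Those that fell numbered 5 to 7 when single libraries were left out. The count of turnover genes that fell was 0 or 1 when single libraries were left out, and the 1 without control replicate 2 was FBXO22 (edgeR adjusted p = 0.0464), not FBXO32. SP1, called in no setting, had log2 fold changes of -0.11 with upper-quartile scaling, -0.051 with library totals only, -0.021 with a mean of at least 1 FPKM, and -0.042 and -0.044 with limma on log2(FPKM + 1) and log2(FPKM + 0.1). It ran from -0.094 to 0.13 when single libraries were left out. Depth limits KLF9, which had 53, 87 and 30 counts in control.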
